A study of Mus musculus with 80 samples.

Results

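Adenine base editors with the ABE8e or the ABEmax deaminase left different combinations of edited adenines at the exon 7 splice donor of *Ptbp1* in mouse Hepa1-6 (Hepa) cells. The comparison covers 8 of the 80 samples of the series, chosen by their labels. They are 3 samples of sgRNA 6 with *Sp*Cas-ABE8e, 3 of sgRNA 6 with *Sp*Cas-ABEmax, whose descriptions read ABE and whose titles read ABEmax, and 2 controls labelled with sgRNA 6. Hepa is a hepatoma line from strain C57L, and all wells were lipofected with 400 ng of total DNA. The controls received the sgRNA without an editor, and control replicate 2 is not analysed here. The samples of a group are described as biological replicates, and no label names a batch, a passage or a plate. Depth was 18227, 8392 and 8937 reads for *Sp*Cas-ABE8e, 6161, 7197 and 8030 reads for *Sp*Cas-ABEmax, and 2048 and 4089 reads for control replicates 1 and 3.

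An adenine base editor joins a deaminase to a Cas9 that nicks one strand of its target. The sgRNA opens the DNA at the protospacer, the deaminase turns exposed adenines of the displaced strand into inosine, and inosine is copied as guanine. ABEmax carries an earlier evolved form of the TadA deaminase and ABE8e a faster one obtained by further evolution. A splice donor starts with the dinucleotide GT of the intron, and a change of that T to C takes away a base the spliceosome reads. Other adenines within reach of the deaminase are called bystanders. PTBP1, the product of the gene, is an RNA-binding protein that represses exons in many non-neuronal cells.

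The protospacer lies on the minus strand of mouse chromosome 10 at 79695775 to 79695794 (GRCm39), with its NGG PAM at 79695772 to 79695774. It spans the end of exon 7 (79695615 to 79695789) and the start of intron 7 of *Ptbp1* (ENSMUSG00000006498.18), numbered on the transcript ENSMUST00000172282.8. The window matched the genome at 1 place, and 19 of 30 annotated transcripts use this junction. Positions are counted from 1 at the PAM-distal end, the PAM is 21 to 23, and the 10 bases on either side run from -10 to -1 and from 21 to 30. Position 4, at 79695791, pairs with the T of the donor GT. Positions 7, 8 and 9 pair with the codon TTT of F296. A7G alone gives TTC and keeps phenylalanine, A8G gives F296S, A9G gives F296L, and A20G gives M292T. The protospacer with its PAM is shown first, with the 5 adenines in capitals, because every allele is read against it. The 5 alleles that follow carry most edited reads of one or the other editor, with edited bases in capitals.
protospacer and PAM: cttAccAAAggctgctgccAtgg
edited at 4: cttGccaaaggctgctgccatgg
edited at 7: cttaccGaaggctgctgccatgg
edited at 4 and 7: cttGccGaaggctgctgccatgg
edited at 4, 7 and 8: cttGccGGaggctgctgccatgg
edited at 4, 7 and 9: cttGccGaGggctgctgccatgg

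On the sense strand, with the exon in capitals, the double edit at positions 4 and 7 changed the donor as follows.
reference donor: GCAGCCTTTGgtaaga
donor edited at 4 and 7: GCAGCCTTCGgcaaga

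To ask what the choice of deaminase changed at each adenine, reads with guanine were counted as a percentage of all reads of a sample. At position 4, A4G was 76.7%, 89.8% and 88.6% with *Sp*Cas-ABE8e and 35.2%, 34.4% and 35.8% with *Sp*Cas-ABEmax. The 3 samples of each group did not overlap, and the difference was 49.9 percentage points (9 pairwise differences from 40.9 to 55.4). The exact permutation test gave a two-sided p = 0.1, the smallest that 3 against 3 samples allow, and an adjusted p = 0.167 over the 5 adenines. The same limit holds for every comparison of the 2 editors below, so that a difference is described by whether the groups overlap.

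At the synonymous position 7, A7G was 74.2%, 86.7% and 85.6% with *Sp*Cas-ABE8e against 28.6%, 28.9% and 27.7% with *Sp*Cas-ABEmax. The mean was 2.89 times higher with *Sp*Cas-ABE8e at this position and 2.42 times higher at position 4. A9G also lay apart, with 2.33%, 3.43% and 3.23% against 1.70%, 1.72% and 1.38%. A8G did not, since 3.48%, 4.67% and 4.45% with *Sp*Cas-ABE8e overlapped 3.65%, 3.83% and 3.20% with *Sp*Cas-ABEmax (exact permutation test, p = 0.3, adjusted p = 0.375). The 9 pairwise differences of A8G ran from -0.357 to 1.47 percentage points. At position 20, next to the PAM, A20G was at most 0.0448% in the 6 edited samples and 0.0488% and 0.0489% in the controls, so that no editing of this adenine was detectable at this depth.

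In the controls A4G was 0.0488% (1 read, 95% Wilson interval 0.00862% to 0.276%) and 0.147% (0.0673% to 0.320%), and each of A7G, A8G and A9G was at most 0.0489%. Every edited sample lay above both controls at positions 4, 7, 8 and 9, with p = 0.0714 in the exact permutation test of 6 against 2 samples, the smallest it can give. *Sp*Cas-ABE8e replicate 1 had the lowest share of its group at each of these 4 positions. Its table also differs from the others in format, with no repeated aligned sequence, and its part in the spread of the group was not tested. Without it the differences were 54.1 percentage points at position 4 and 57.8 at position 7.

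**Figure D1:**
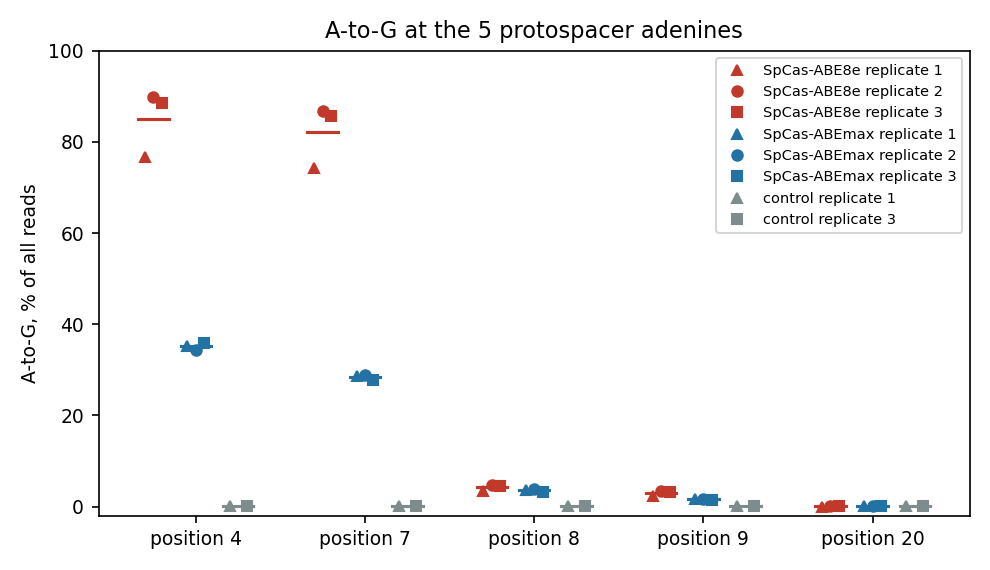
A-to-G at positions 4, 7, 8, 9 and 20 of the protospacer as a percentage of all reads, 1 point per sample, with horizontal bars for group means. At positions 4 and 7 the 3 *Sp*Cas-ABE8e samples sit above 74%, the 3 *Sp*Cas-ABEmax samples between 27.7% and 35.8%, and at position 8 the editors overlap.

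The single positions hide how the edits were combined. With *Sp*Cas-ABE8e the allele edited at 4 and 7 and at no other adenine made up 67.8%, 78.4% and 78.0% of all reads, against 7.69%, 7.93% and 7.76% with *Sp*Cas-ABEmax. The mean was 9.59 times higher with *Sp*Cas-ABE8e, and 10.0 times without its replicate 1. The single edit at position 4 moved the other way, with 3.40%, 3.57% and 3.39% against 26.0%, 24.6% and 26.9%. The single edit at position 7, which leaves the GT of the donor unchanged, was 0.960%, 0.715% and 0.593% against 18.8%, 18.5% and 18.1%. For each of these 3 alleles the groups lay far apart, with p = 0.1 in the exact permutation test and an adjusted p = 0.114 over the classes of edited adenines. Reads without an edited adenine were 21.5%, 8.59% and 9.85% with *Sp*Cas-ABE8e and 40.7%, 41.9% and 40.9% with *Sp*Cas-ABEmax.

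Among edited reads alone, the edit at 4 and 7 was 86.8 ± 0.473% (s.d., n = 3) with *Sp*Cas-ABE8e and 13.6 ± 0.358% with *Sp*Cas-ABEmax. On this scale, and for this class, *Sp*Cas-ABE8e replicate 1 no longer stood apart, and the mean without it was also 86.8%. Edits at 4 alone took 44.9 ± 1.74% of the edited reads of *Sp*Cas-ABEmax and those at 7 alone 32.1 ± 0.585%. With *Sp*Cas-ABE8e these shares were 4.03 ± 0.294% and 0.894 ± 0.299%. Its replicate 1 was the highest of its group in both, at 4.36% for 4 alone and 1.23% for 7 alone. Replicates 2 and 3 had 3.93% and 3.79% for 4 alone, and 0.787% and 0.663% for 7 alone.

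**Figure D2:**
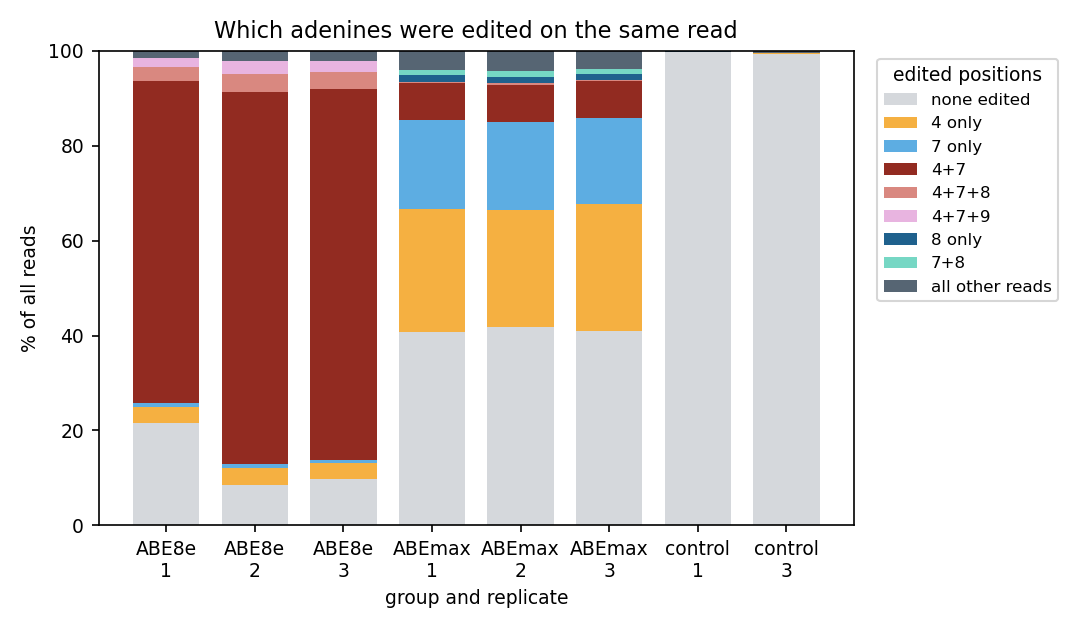
Stacked bars of the percentage of all reads by the set of adenines edited on the same read, 1 bar per sample. The allele edited at 4 and 7 fills 67.8% to 78.4% of each *Sp*Cas-ABE8e bar, whereas each *Sp*Cas-ABEmax bar holds more reads edited at 4 alone (24.6% to 26.9%) or at 7 alone (18.1% to 18.8%) than at both.

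Counted per read, *Sp*Cas-ABE8e left 75.1 ± 6.00% of reads with 2 edited adenines and 4.22 ± 0.209% with 1. For *Sp*Cas-ABEmax the order was reversed, with 10.6 ± 0.609% of reads carrying 2 edits and 46.3 ± 1.24% carrying 1. Reads with 3 edits were 5.82 ± 0.899% and 0.337 ± 0.0767%, and no read of any sample had all 5 adenines edited. The mean number of edits per edited read was 2.01, 2.03 and 2.03 with *Sp*Cas-ABE8e and 1.19, 1.21 and 1.18 with *Sp*Cas-ABEmax.

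Whether positions 4 and 7 were edited independently was read from ungapped reads, by comparing A7G between reads with and without A4G. With *Sp*Cas-ABE8e, A7G was present in 95.2%, 95.7% and 95.9% of reads with A4G and in 4.83%, 8.24% and 6.58% of reads without it. With *Sp*Cas-ABEmax the direction turned, with 22.9%, 24.3% and 22.4% of reads with A4G and 32.2%, 31.8% and 31.4% of reads without it. In all 3 *Sp*Cas-ABEmax samples, then, an edit at 4 came with fewer edits at 7 on the same read. The share of reads edited at both positions was 0.792, 0.832 and 0.795 times the product of the 2 single shares with *Sp*Cas-ABEmax, and 1.28, 1.10 and 1.11 times with *Sp*Cas-ABE8e. This ratio cannot exceed 1 over the larger single share, which was 77.2%, 90.5% and 89.3% with *Sp*Cas-ABE8e, so that its size there says little of the link. The log2 odds ratio was -0.63 ± 0.08 (s.d., n = 3) with *Sp*Cas-ABEmax and 8.31 ± 0.34 with *Sp*Cas-ABE8e, and the groups did not overlap (exact permutation test, p = 0.1). The odds ratio was chosen after its values were seen. The share of cells that received an editor was not measured.

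**Figure D3:**
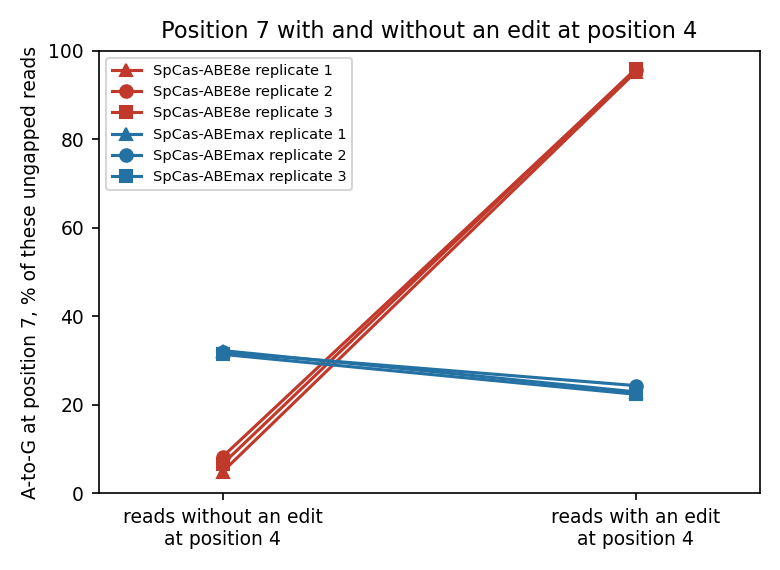
Percentage of ungapped reads with A-to-G at position 7, among reads without (left) and with (right) an edit at position 4, 1 line per sample. The *Sp*Cas-ABE8e lines rise from at most 8.24% to at least 95.2%, and the *Sp*Cas-ABEmax lines fall from at least 31.4% to at most 24.3%.

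For the lesser bystanders, position 4 paired with 8 or 9 followed the same split. Position 7 paired with 8 or 9 did not. There the mean log2 odds ratio was positive with *Sp*Cas-ABEmax as well, at 0.878 and 0.288. Of A8G reads of *Sp*Cas-ABE8e, 96.2%, 96.4% and 96.0% also had A7G, and 97.6%, 99.0% and 99.0% also had A4G. With *Sp*Cas-ABEmax these shares were 40.9%, 44.2% and 40.9% for A7G and 27.1%, 31.2% and 26.5% for A4G. The A8G level that overlapped between the editors therefore came from different alleles. The allele edited at 4, 7 and 8 was 2.99%, 3.90% and 3.64% of reads with *Sp*Cas-ABE8e and 0.276%, 0.292% and 0.212% with *Sp*Cas-ABEmax. Conversely, the edit at 8 alone was 1.43%, 1.19% and 1.22% with *Sp*Cas-ABEmax and at most 0.0119% with *Sp*Cas-ABE8e.

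For position 9, the allele edited at 4, 7 and 9 was 1.84%, 2.68% and 2.39% with *Sp*Cas-ABE8e against at most 0.0973% with *Sp*Cas-ABEmax, whose samples held 0.763%, 0.611% and 0.735% of reads edited at 9 alone. All 4 of positions 4, 7, 8 and 9 were edited in 0.274%, 0.560% and 0.582% of reads with *Sp*Cas-ABE8e. No *Sp*Cas-ABEmax read had this allele, which allows at most 0.0374% to 0.0487% of reads per sample. The remaining classes with a mean of at least 0.5% in a group were those edited at 7 and 8 (1.12%, 1.39% and 1.08% with *Sp*Cas-ABEmax) and at 4 and 8 (0.698%, 0.903% and 0.623%), and each was at most 0.119% with *Sp*Cas-ABE8e.

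In *Sp*Cas-ABEmax the adjacent positions 7 and 8 were the pair found together more often than the product of their shares in every sample by at least 1.40 times (1.40, 1.52 and 1.46). Positions 4 and 8 were found together less often, with 0.770, 0.905 and 0.730 times the product. Relative to A4G, *Sp*Cas-ABEmax made more A8G than *Sp*Cas-ABE8e, with 10.2 ± 1.12 against 4.92 ± 0.346 A8G reads per 100 A4G reads (s.d., n = 3), and less A7G, with 80.9 ± 3.29 against 96.6 ± 0.0592. Neither pair of groups overlapped.

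Read as protein and splice site, most edits of both editors kept F296. Reads with A4 unedited and a changed residue 296 were rare with *Sp*Cas-ABE8e. F296S with A4 unedited was 0.0471 ± 0.0245% of reads with *Sp*Cas-ABE8e and 2.48 ± 0.153% with *Sp*Cas-ABEmax. F296L with A4 unedited was 0.0600 ± 0.0219% and 1.16 ± 0.0260%. In both cases all *Sp*Cas-ABEmax samples lay above all *Sp*Cas-ABE8e samples (exact permutation test, p = 0.1). With A4G on the same read the order was the opposite, again without overlap, at 3.63 ± 0.471% against 1.01 ± 0.181% for F296S and 2.43 ± 0.422% against 0.399 ± 0.178% for F296L. F296P, from edits at 8 and 9, was found with A4 edited in 0.472 ± 0.172% of *Sp*Cas-ABE8e reads. RNA and protein were not measured in these samples.

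The allele spectrum was narrow in both groups. *Sp*Cas-ABE8e samples held 253, 215 and 219 distinct window alleles and *Sp*Cas-ABEmax samples 217, 219 and 257, of which 3 or 4 per sample made up 90% of reads. At least 139 alleles per edited sample were read only once. The most common window allele was the one with A4G and A7G alone in *Sp*Cas-ABE8e, with a mean of 72.4%, and the unedited reference in *Sp*Cas-ABEmax, with a mean of 39.9%.

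All 3 substitutions at each of the 40 window positions were then compared. Of these 120 substitutions, 20 (16.7%) did not overlap between the editors, and 8 (6.67%) were higher with *Sp*Cas-ABE8e. These 8 include A4G, A7G and A9G, and no other of them had a mean above that of A-2G, 0.142% with *Sp*Cas-ABE8e. The smallest adjusted p over the 120 was 0.6 in the exact permutation tests. With at least 0.1% of reads in either group, 6 substitutions did not overlap, namely A4G, A7G, A9G, A-2G, A4C and G23T. A4C was lower with *Sp*Cas-ABE8e (0.0219%, 0.0953% and 0.112%) than with *Sp*Cas-ABEmax (0.195%, 0.125% and 0.174%), and G23T, in the PAM, was 0.0274%, 0.0715% and 0.0783% against 0.179%, 0.0834% and 0.112%.

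Compared with the controls, 17 of the 120 substitutions (14.2%) were higher in all 6 edited samples, with A4G, A7G, A8G and A9G the only ones above 0.5% of reads. Substitutions above 0.5% in the controls were of another kind. T13G was 1.17% and 1.10% in the controls, 0.763%, 0.274% and 0.145% with *Sp*Cas-ABE8e and 0.208% to 0.243% with *Sp*Cas-ABEmax. C15A was 0.732% and 0.758% in the controls and at most 0.0549% in edited samples. T16G and T29G likewise reached 0.732% to 1.05% and 0.562% to 0.732% in the controls, and at most 0.0895% and 0.0823% in edited samples. These 4 changes were thus lower in every edited sample than in both controls.

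**Figure D4:**
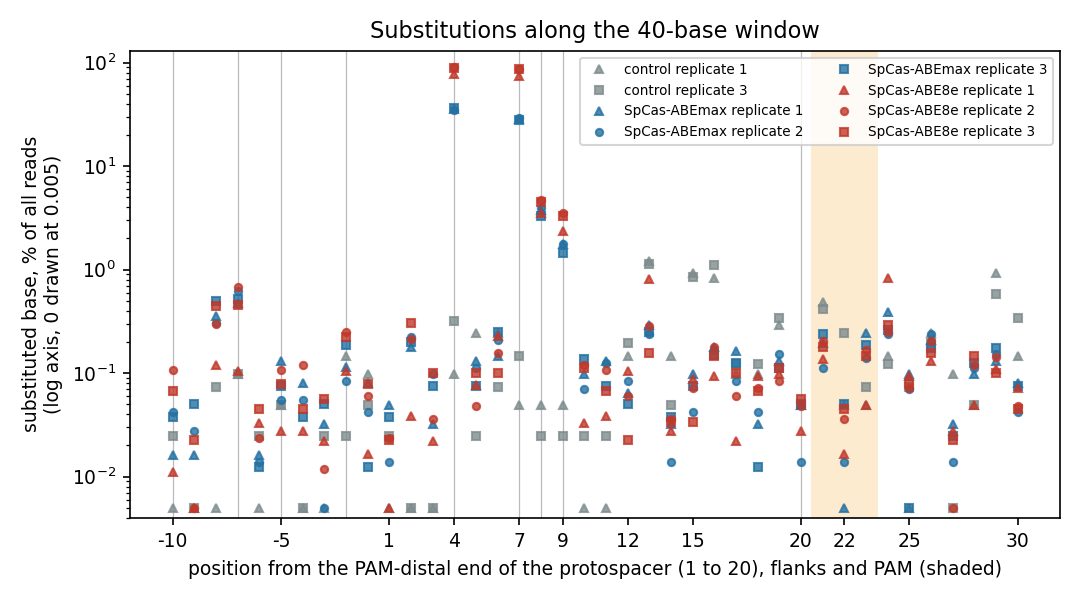
Substituted bases at each position of the window as a percentage of all reads on a log axis, 1 point per sample, with adenines marked by grey lines, the PAM shaded and values of 0 drawn at 0.005%. Positions 4, 7, 8 and 9 stand above the controls in all 6 edited samples, whereas the controls are the highest at positions 13, 15, 16 and 29.

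Reads with a changed cytosine in the protospacer were 0.466%, 0.500% and 0.414% of all reads with *Sp*Cas-ABE8e and 0.617%, 0.611% and 0.573% with *Sp*Cas-ABEmax. Both groups lay below the controls, with 1.61% and 1.32%. The control value was mostly C-to-A, at 1.27% and 1.37%, so that the total does not speak to other cytosine changes. C-to-G, summed over the 7 cytosines of the protospacer, was 0.0604%, 0.191% and 0.157% with *Sp*Cas-ABE8e, 0.179%, 0.153% and 0.224% with *Sp*Cas-ABEmax, and 0.0977% and 0.0489% in the controls. The editors overlapped, and all samples except *Sp*Cas-ABE8e replicate 1 lay above both controls. C6G was 0.0112% to 0.0357% with *Sp*Cas-ABE8e and 0.0325% to 0.0973% with *Sp*Cas-ABEmax, and the 0 reads of each control allow up to 0.146% and 0.0734%. C-to-T was 0.157% to 0.280% and 0.236% to 0.292%, against 0.586% and 0.220% in the controls, and overlapped between all groups.

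Gapped reads, with an insertion or a deletion in the window, were rarer with *Sp*Cas-ABE8e (0.697%, 0.822% and 0.817%) than with *Sp*Cas-ABEmax (1.22%, 1.26% and 1.38%). The controls had 0% (0 of 2048 reads, which allows up to 0.146%) and 0.0978%. The difference between the editors lay in deletions, with 0.324%, 0.477% and 0.269% of reads against 0.909%, 0.903% and 1.05%. Insertions overlapped, with 0.373%, 0.346% and 0.548% against 0.308%, 0.361% and 0.336% (exact permutation test, p = 0.2).

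This difference lay in long deletions. Deletions that took the whole 40-base window were 3, 1 and 0 reads with *Sp*Cas-ABE8e, and 18, 18 and 23 reads (0.292%, 0.250% and 0.286%) with *Sp*Cas-ABEmax. Their deposited sizes ran from 41 to 77 bases with *Sp*Cas-ABEmax, with 60, 61 and 49 bases the most common in replicates 1, 2 and 3. Deletions that ran over an edge of the window were 8, 2 and 5 reads against 15, 32 and 36. Deletions that began and ended inside the window overlapped, with 0.263%, 0.441% and 0.213% of reads against 0.373%, 0.208% and 0.311% (exact permutation test, p = 0.9). At each of the 40 positions more reads had the base deleted in every *Sp*Cas-ABEmax sample than in any *Sp*Cas-ABE8e sample. The highest mean was at position 7 with *Sp*Cas-ABE8e (0.217%) and at position 11 with *Sp*Cas-ABEmax (0.823%).

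**Figure D5:**
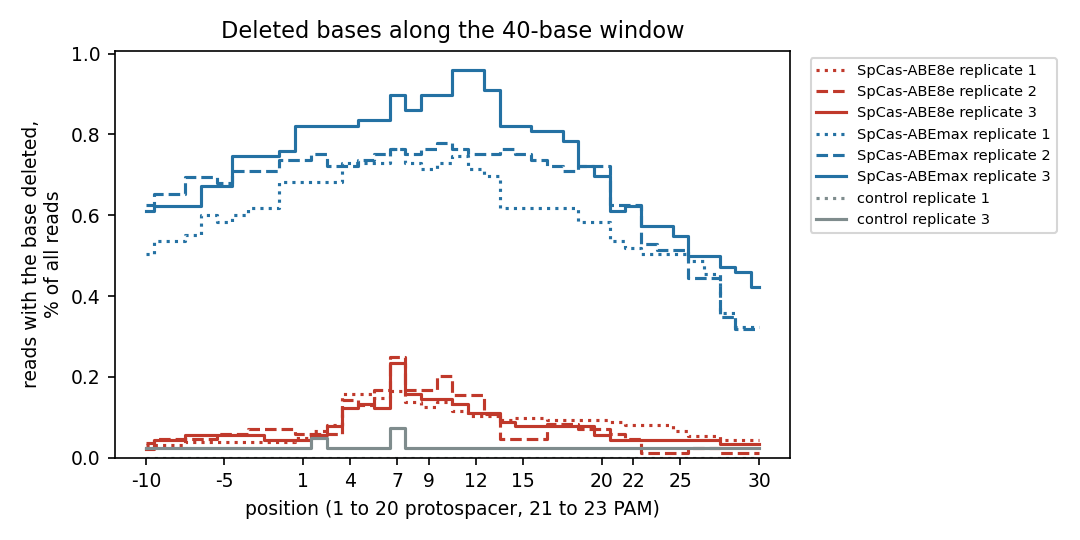
Percentage of all reads in which each window position was deleted, 1 line per sample. The *Sp*Cas-ABEmax lines lie above the *Sp*Cas-ABE8e lines at all 40 positions, and the *Sp*Cas-ABE8e lines are highest at or near position 7.

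Single samples held 87, 50 and 49 gapped alleles with *Sp*Cas-ABE8e and 43, 48 and 52 with *Sp*Cas-ABEmax. In each sample most of them were read once. Of the gapped alleles, 37 were found in at least 2 samples of one editor, 25 of them with *Sp*Cas-ABE8e and 16 with *Sp*Cas-ABEmax, some with both. Both counts rest on unequal depth, so that they do not rank the editors. The most common recurrent gapped allele was the loss of the whole window, with 63 reads. Of these, 59 were in all 3 *Sp*Cas-ABEmax samples and 4 in 2 *Sp*Cas-ABE8e samples. That allele pools deletions of several sizes. It was followed by the loss of positions -10 to 20 (20 reads) and -10 to 27 (12 reads). A deletion of positions 11 to 13 was found in 2 samples of each editor, with 2 and 10 reads. The deletion of positions 4 to 7, which removes both main edit positions, had 7 reads in 2 *Sp*Cas-ABE8e samples and 0 reads with *Sp*Cas-ABEmax. Among the 3 most common gapped alleles of single samples were also deletions of position 10 and of 17 to 22 (3 reads each, *Sp*Cas-ABE8e replicate 2), of 7 to 30 (3 reads, *Sp*Cas-ABE8e replicate 3) and of -4 to 30 (6 reads, *Sp*Cas-ABEmax replicate 3), and a repeat of 8 to 14 (4 reads, *Sp*Cas-ABE8e replicate 1). The other recurrent gapped alleles had at most 9 reads each.

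Insertions were mostly direct repeats of the neighbouring bases. Allowing A read as G, 57 of 68, 25 of 29 and 45 of 49 insertion reads with *Sp*Cas-ABE8e could be read as a tandem repeat, and 16 of 19, 23 of 26 and 24 of 27 with *Sp*Cas-ABEmax. The longest repeats were 12 to 17 bases with *Sp*Cas-ABE8e and 16 to 18 with *Sp*Cas-ABEmax. Repeats of 5 or more bases made up 88 of the 127 repeat reads of *Sp*Cas-ABE8e. Some that recurred in *Sp*Cas-ABE8e are shown along the protospacer, with the PAM-proximal copy in capitals, since they show where the edits lay.
repeat of positions 5 to 14, 8 reads: cttaccaaaggctgCCGAAGGCTGctgcca
repeat of positions 8 to 12, 7 reads: cttaccaaaggcAAGGCtgctgcca
repeat of positions 5 to 11, 7 reads: cttaccaaaggCCGAAGGctgctgcca

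In the repeats of positions 5 to 14 and 5 to 11, the PAM-proximal copy carries the edit of position 7 and the PAM-distal copy does not. Of the repeat reads with *Sp*Cas-ABE8e in which position 7 was repeated, the edit lay in the PAM-proximal copy alone in 65 of 77 reads, in the PAM-distal copy alone in 6, in both in 3 and in neither in 3. Replicates 1 and 3 gave 30 of 33 reads each with the edit in the PAM-proximal copy alone, whereas replicate 2 gave 5 of 11 reads, against 4 with it in the PAM-distal copy alone. Of the 6 *Sp*Cas-ABE8e reads with the edit in the PAM-distal copy alone, 5 hold a 1-base repeat placed at position 7. That base could as well be placed at a neighbouring adenine, so that the leftmost placement fixed which copy holds the edit. With *Sp*Cas-ABEmax these numbers were 17, 1, 4 and 16 of 38 reads. Position 4, which lay before the repeat in 101 of the *Sp*Cas-ABE8e repeat reads, was edited in 19 of them, which is 13.0%, 30.4% and 18.8% in replicates 1 to 3. In ungapped reads of the same samples A4G was 77.2%, 90.5% and 89.3%. In all 3 *Sp*Cas-ABE8e samples, then, reads with a repeat were mostly unedited at 4. With *Sp*Cas-ABEmax, 0 of 30 such reads had A4G. These reads are few and may hold PCR copies of the same molecule, so that they are given as counts without a test.

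To see whether the joint edit followed the deaminase with another Cas9 as well, the 6 samples of *Sp*G, a variant with a relaxed PAM, at the same protospacer were added. Among A4G reads, A7G was 90.6%, 89.3% and 90.8% with *Sp*G-ABE8e and 14.7%, 11.7% and 13.3% with *Sp*G-ABEmax. The mean difference within Cas9 variants was 74.6 percentage points, with p = 0.005 in the stratified exact permutation test, the smallest that its 400 arrangements allow. It pools the *Sp*Cas samples above with the *Sp*G samples, which were not tested alone. The number of edits per edited read differed by 0.835 and the share of A4G reads with no other change by -71.7 percentage points, each with the same p in this permutation test. The gain in A7G among A4G reads was 72.2 percentage points with *Sp*Cas and 77.0 with *Sp*G. The difference between the gains had p = 0.595 (exact permutation test, adjusted p = 0.744). Exchanging deaminase labels removes the gains themselves, so that this p cannot decide whether the gains differ.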

How the data were processed

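Amplicons of genomic DNA from a 2-step PCR were sequenced on an Illumina MiSeq. The authors aligned the reads to the amplicon with CRISPResso2 (version and parameters not given in the sources used here) and deposited, per sample, a count of reads for each allele in a 40-base window, without normalization. They also deposited the percent of reads, which equals the count over the total of the table, and numbers of inserted, deleted and substituted bases. These numbers cover more than the window, except in *Sp*Cas-ABE8e replicate 1, whose 282 reads with fewer substituted bases than the window shows were counted on another basis. The genome build of the authors is not given in the sources used here, so windows were matched to GRCm39 with GENCODE M39.

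From the counts, each allele was turned to the sgRNA strand, rows of one allele were summed, and shares of all reads were computed with Python 3 scripts (numpy 2.4.6, scipy 1.17.1). No allele was filtered. A class of edited adenines holds ungapped reads with A or G at all 5 adenines. Insertions push bases out of the fixed window. A tandem repeat is an insertion that becomes the reference with 1 segment doubled, with A read as G allowed, and the leftmost placement was used. Groups follow the labels, and the sample is the unit of every test. Means were compared with two-sided exact permutation tests and Benjamini-Hochberg adjustment over the 5 adenines, the classes or the 120 substitutions. The stratified test exchanged deaminase labels within a Cas9 variant. The reading was tested on 40 simulated tables, in which 160 of 160 counts were recovered.

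The members and lists were chosen with earlier results of these data known. Named were all 5 adenines, other substitutions more than 0.5 percentage points above the highest control or above 0.5% in the controls, classes with a mean of at least 0.5%, and gapped alleles among the 3 most common of a sample. Gapped alleles in at least 2 samples of an editor fell under the same rule, but of these 37 only the more common are named and the rest are given by count. Other substitutions and classes were named after their values were seen. Intervals are 95% Wilson intervals and a count of 0 allows 3 reads. Both reflect the error of counting alone, because the protocols name no molecular identifiers and several PCR reads may stem from 1 molecule. Alternatives were a minimum of 0.2% per allele, leaving out gapped reads or reads with other changes, subtraction of the controls, a logit scale, leaving out each replicate, the replicate number as a block, and indels taken from the numbers that the tables give.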

Additional observations from a re-analysis of the deposited data

How the results depend on the processing

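The direction of the difference between *Sp*Cas-ABE8e and *Sp*Cas-ABEmax held under every alternative run for A4G, A7G, A9G, the classes edited at 4, at 7 and at both, A7G among A4G reads, gapped reads, deletions and cytosine changes. A20G, with a main difference of 0.0022 percentage points, turned to -0.00184 when reads with other changes were left out and to -0.19 on the logit scale, and lay between -0.00784 and 0.0118 when replicates were left out, and the cause was not tested. The main count of 20 substitutions without overlap was 6 with at least 0.1% of reads, and between 27 and 44 when replicates were left out, where fewer samples overlap less (32 without *Sp*Cas-ABE8e replicate 1, 31 without its replicate 2 and 34 without *Sp*Cas-ABEmax replicate 3). Within Cas9 variants the exact permutation p rose to 0.0556, the smallest that 2 replicates per group allow, with differences of 74.2 to 74.9 percentage points for A7G among A4G reads, -72.0 to -71.0 for A4G with no other change and 0.830 to 0.841 edits per edited read. Same-numbered samples of the editors correlated at -0.597, -0.163 and -0.00267 over the 120 deviations from group means, and unlike-numbered samples at -0.167 to 0.601. With 3 samples per group, these deviations cannot show whether same-numbered samples shared a batch. The replicate block left A4G at 49.9 percentage points (exact permutation p = 0.25, its smallest) and made no call. Subtracting the controls changes no difference between editors. With a minimum of 0.2% per allele A20G, insertions and cytosine changes had no reads left. Depth limits a count of 0 to 0.0165% to 0.146% of reads per sample.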

Other observations

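Adenines outside the protospacer gave low A-to-G shares. Summed over the 4 adenines of the flanks, they were 0.230%, 0.560% and 0.369% of reads with *Sp*Cas-ABE8e, 0.227%, 0.195% and 0.237% with *Sp*Cas-ABEmax, and 0.146% and 0.171% in the controls, so that the editors overlapped (exact permutation test, p = 0.2). At position -2, A-2G was 0.104%, 0.155% and 0.168% with *Sp*Cas-ABE8e against 0.0812%, 0.0556% and 0.0996% with *Sp*Cas-ABEmax, and 0.0488% and 0.0245% in the controls.

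Changes of the 5 protospacer adenines to C or T, rather than G, summed to 0.181%, 0.572% and 0.481% of reads with *Sp*Cas-ABE8e, 0.536%, 0.417% and 0.523% with *Sp*Cas-ABEmax, and 0.0488% and 0.269% in the controls. T2G was 0.191% and 0.280% in *Sp*Cas-ABE8e replicates 2 and 3 and 0.162% to 0.181% with *Sp*Cas-ABEmax, but 0.00549% (1 read) in *Sp*Cas-ABE8e replicate 1 and 0% in both controls. This low-level change was thus at least 0.162% in the other 5 edited samples. Such a pattern was not particular to the protospacer. In the same 5 samples A-7C, in the flank, was 0.358% to 0.528%, and T-8G was 0.214% to 0.349%. In *Sp*Cas-ABE8e replicate 1 they were 0.00549% and 0.0110%, and in each control at most 0.0245%. The source of this shared pattern was not tested.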
